A study of Mus musculus with 12 samples.

Results

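The genes of the 4 mouse Hox clusters (Hoxa, Hoxb, Hoxc and Hoxd) were followed through the conversion of embryonic stem cells into cardiomyocytes. A gene was included when the annotation of the array gave it a symbol of Hoxa, Hoxb, Hoxc or Hoxd followed by a number alone. It was read by the probe set that named it and no other gene, with the highest mean over the 12 arrays where several did, and dim genes were kept. This gave 33 genes of the 18193 named by the array, 9 in Hoxa, 9 in Hoxb, 7 in Hoxc and 8 in Hoxd. RefSeq lists 39 Hox genes, and the other 6 were not analysed here. RNA of CGR8 mouse embryonic stem cells, a feeder-free line, was hybridized to 12 Affymetrix Mouse 430 2.0 arrays, 3 for each of 4 stages. ES-LIF(+) cells were undifferentiated and grown in 7.5% serum with leukemia inhibitory factor (LIF), a cytokine that keeps them pluripotent, and ES-LIF(-) cells had spent 48 h in that serum without it. Cardiopoietic cells (CP) and cardiomyocytes (CM) both came from cells primed with one cocktail of growth factors and interleukins and both were enriched on a Percoll density gradient. CP grew for 5 days in 3% serum supplemented with the cytokine TNFα at 30 ng/ml, and CM for 9 days in 20% serum without it, so time, serum and TNFα changed together with the stage.

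Hox genes encode homeodomain transcription factors that give cells their position along the head-to-tail axis. They lie in clusters in which the order along the chromosome follows the order of expression along the body, and genes at the same position in different clusters, called paralogs, carry the same number. Low paralog numbers belong to the hindbrain and the pharyngeal arches and high numbers to the lumbar and tail regions, the limbs and the urogenital tract. In pluripotent cells the clusters are held silent by Polycomb proteins, and they open in succession after differentiation, with the low numbers first. Hox proteins bind DNA together with TALE homeodomain cofactors of the Pbx, Meis and Pknox families. Retinoic acid receptors, Cdx factors and the methyltransferase Kmt2a act upstream of them. In the RefSeq annotation of the mouse genome (GRCm38.p6) the Hoxa genes measured here span chr6:52162417-52260880, the Hoxb genes chr11:96194316-96368254, the Hoxc genes chr15:102921131-103036856 and the Hoxd genes chr2:74668225-74765142.

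Signals are the intensities that the authors scaled so that each array has a trimmed mean of 500, and the median probe set of an array read between 101 and 144, with 101 to 111 on ES-LIF(+), 104 to 110 on ES-LIF(-), 129 to 136 on CP and 128 to 144 on CM arrays. Differences are of mean log2(signal + 16), which understates the change of a dim gene, and every rise, fall or difference below is on this log2 scale, while all levels are linear signals. A gene was tested where its signal exceeded the median of its own array on at least 3 of 12 arrays, and it is said to have risen or fallen where limma's Benjamini-Hochberg adjusted p was under 0.05 and the fold over 1.5. Of the 33 Hox genes 17 were tested and 16 were too dim. The study calls the arrays of a stage biological replicates, and all errors are standard deviations over 3 arrays unless named otherwise. Of 6 cardiomyocyte markers, 6 exceeded the array median on every CM array, with summed signals of 494 to 633 in ES-LIF(+), 1305 to 1537 in CP and 96210 to 109679 in CM. All 6 pluripotency markers exceeded the median on every array, with sums of 65129 to 67345 in ES-LIF(+), 43903 to 49247 in ES-LIF(-), 51682 to 57314 in CP and 14267 to 19984 in CM. Of these markers Dppa5a averaged 23680 in ES-LIF(+) and 30080 in CP, while Pou5f1, Sox2, Zfp42, Klf4 and Fgf4 fell in CP. All 7 fibroblast and mesenchyme markers exceeded it on every CP and CM array, with sums of 827 to 1157 in ES-LIF(+), 105055 to 112970 in CP and 58086 to 58455 in CM. The summed signals of 4 mesothelium markers were 532 to 745 in ES-LIF(+), 7919 to 8011 in CP and 2779 to 3384 in CM, while those of 7 neural markers were 4158 to 4518 in ES-LIF(+), 2793 to 3148 in CP and 3636 to 3842 in CM. The 4 smooth muscle markers summed to 3487 to 4728 in ES-LIF(+), 28633 to 32904 in CP and 58445 to 67726 in CM, and 3 embryonic blood markers to 20.7 to 31.6, 77.7 to 180.5 and 564 to 16139 in the same stages. The 5 endoderm markers summed to 149 to 334 in ES-LIF(+), 1498 to 1675 in CP and 1169 to 2369 in CM, where Sox17 and Foxa2 rose in both CP and CM, and 5 endothelium markers to 1209 to 1817, 1146 to 1432 and 1787 to 2163. Of the endothelium markers Cdh5 and Emcn rose and Pecam1 and Tek fell in both CP and CM, and Kdr rose in CM. The part of these cell types in the Hox signals was not tested.

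Hox signal was low in both embryonic stem cell stages and higher in CP and CM. The 33 signals of an array summed to 2422, 2222 and 1765 in ES-LIF(+), 2618, 2383 and 2043 in ES-LIF(-), 6196, 6267 and 6322 in CP and 5744, 5662 and 5899 in CM. The sums of the CP and CM arrays did not overlap those of the embryonic stem cell arrays, and those of CP lay above those of CM. Between 4 and 6 Hox genes exceeded the array median on an ES-LIF(+) array, 5 to 9 on ES-LIF(-), 15 or 16 on CP and 10 to 14 on CM. The stage mean was highest in CP for 21 genes and in CM for 12, and in neither embryonic stem cell stage for any gene. In these bulk samples fewer cells of a type and less RNA per cell cannot be told apart. A moderated F test over the 4 stages found 14 of the 17 tested Hox genes changed, where 73.1% of all 13145 tested genes changed. Hoxb7 (adjusted p = 0.101), Hoxc9 (adjusted p = 0.467) and Hoxd13 (adjusted p = 0.146) did not pass this F test.

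**Figure D1:**
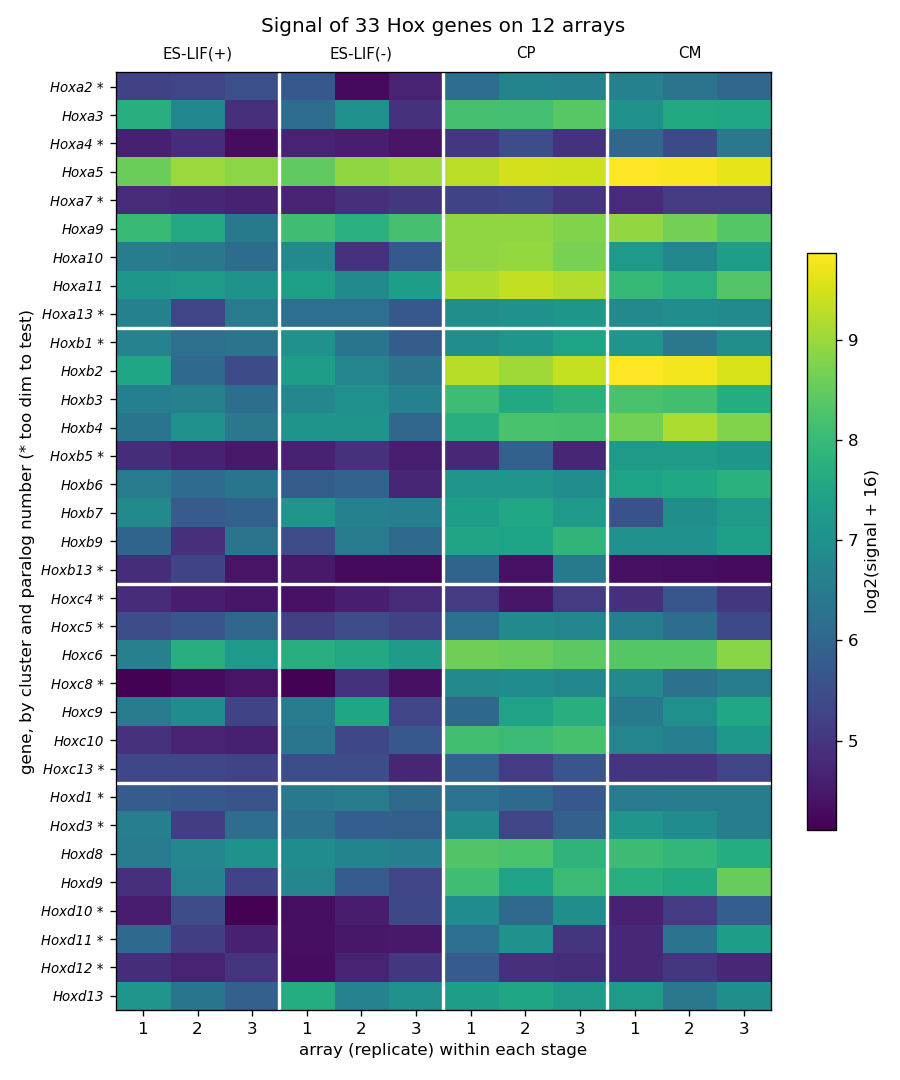
Signal of the 33 Hox genes (rows, by cluster and paralog number) on the 12 arrays (columns, by stage), as log2(signal + 16) in colour, with an asterisk on the 16 genes too dim to test. Most rows are brighter on the CP and CM arrays than on the 6 embryonic stem cell arrays, and Hoxa10, Hoxa11 and Hoxc10 are brighter on CP than on CM.

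Comparison of CP with ES-LIF(+) asked which Hox genes were raised at the cardiopoietic stage. In CP 15 of the 33 Hox genes rose, 15 of the 17 tested, where 18.7% of all tested genes rose and 13.3% fell. All 33 differences were above 0, with a median of 0.92 on the log2 scale, against 0.04 over all tested genes and 0.15 over the named genes too dim to test. The median probe set itself was 0.28 higher on CP arrays, and centring each array on its median removes that much from every difference. On all 3 CP arrays 24 of 33 genes read above all 3 ES-LIF(+) arrays, which held for 26% of all named genes. Of the 6635 tested genes within the range of mean signals of the tested Hox genes, 66.9 to 571, 23.6% rose. The risen genes were 5 of 9 in Hoxa, 5 of 9 in Hoxb, 2 of 7 in Hoxc and 3 of 8 in Hoxd. Only tested genes could be called, and 5, 6, 3 and 3 were tested in these clusters. By position the risen genes were 3 of 7 with paralog numbers 1 to 3, 5 of 12 with numbers 4 to 8 and 7 of 14 with numbers 9 to 13. In these groups 3, 6 and 8 genes were tested.

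In CM 12 of the 33 Hox genes rose against ES-LIF(+), the same control arrays as in the comparison with CP. These were 12 of the 17 tested, where 25.7% of all tested genes rose and 23.9% fell. The median difference was 0.88, against 0.06 over all tested genes and 0.19 over the named genes too dim to test, with a shift of the array median of 0.32. Hoxb13, Hoxc13 and Hoxd12, all too dim to test, had differences below 0, and the other 30 lay above it. On the CM arrays 20 genes read above all ES-LIF(+) arrays and 1 read below them, where 30% of all named genes read above and 25.9% below. Within the same range of mean signals 32% of tested genes rose. The risen genes were 3 of 9 in Hoxa, 5 of 9 in Hoxb, 2 of 7 in Hoxc and 2 of 8 in Hoxd, with 5, 6, 3 and 3 tested.

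**Figure D2:**
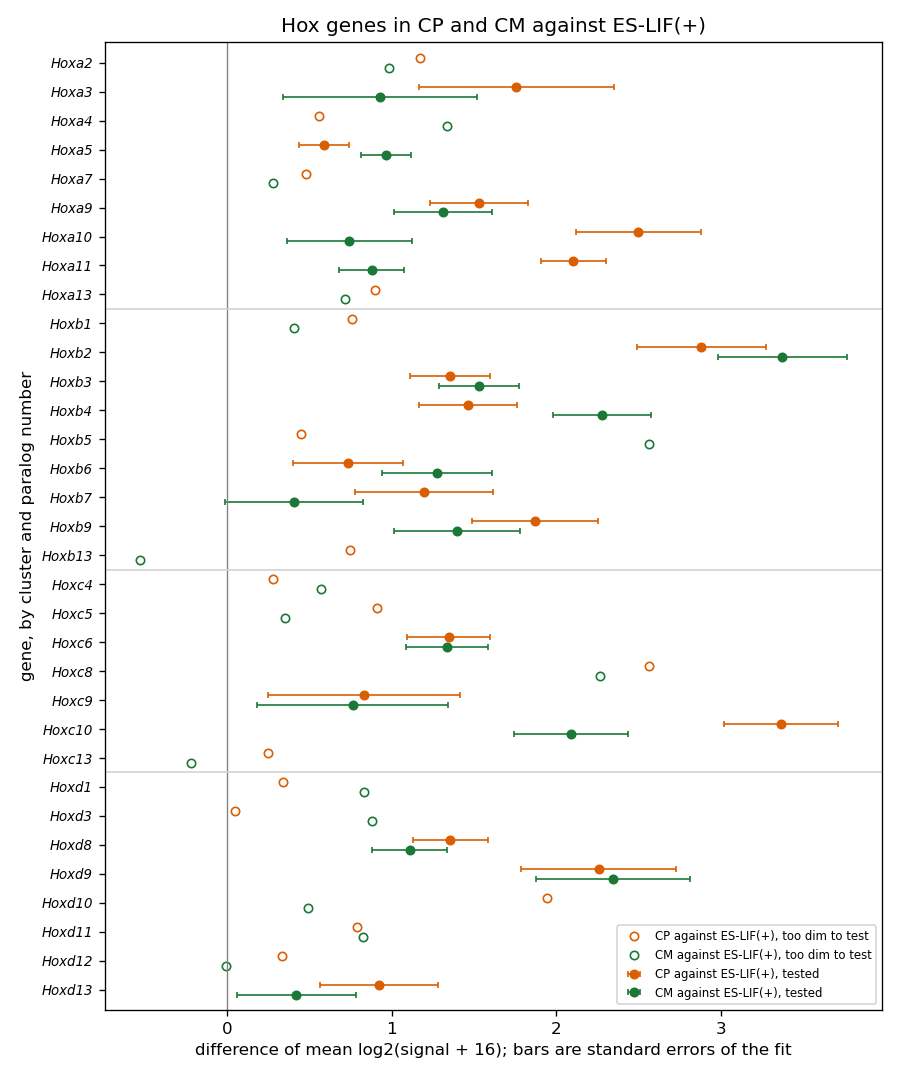
Difference of mean log2(signal + 16) of each Hox gene in CP (orange) and CM (green) against ES-LIF(+), by cluster and paralog number; filled points are tested genes with the standard error of the fit, and open points are genes too dim to test. All CP points lie above 0, and the CM points of Hoxb13, Hoxc13 and Hoxd12 lie below it.

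Among the genes with low paralog numbers, Hoxb2, which patterns the hindbrain and its facial motor neurons, read 167, 51.3 and 26.9 on the ES-LIF(+) arrays, 143, 89.7 and 63.7 on ES-LIF(-), 592, 509.5 and 643 on CP and 906, 854 and 713 on CM. Every CP and CM array lay above every embryonic stem cell array, and CM lay above CP. The difference was 2.88 (SE 0.39, adjusted p = 2.63e-05) in CP and 3.37 (SE 0.39, adjusted p = 2.49e-06) in CM. Hoxb3, a gene of the hindbrain and the pharyngeal arches, read 80.7, 84.1 and 56.9 on the ES-LIF(+) arrays, 92.9, 112 and 84.1 on ES-LIF(-), 257, 178 and 208 on CP and 283, 261 and 188 on CM. It rose by 1.36 in CP (adjusted p = 0.000309) and 1.53 in CM (adjusted p = 5.98e-05), and the CP and CM arrays overlapped. Hoxa3, needed for the thymus and the parathyroid gland, read 199.9, 94.9 and 13.6 on the ES-LIF(+) arrays, 55.5, 112 and 14.5 on ES-LIF(-), 272, 268 and 317 on CP and 118, 180.3 and 170.0 on CM. The embryonic stem cell arrays of Hoxa3 were scattered, and ES-LIF(+) replicate 1 lay above every CM array. Hoxa3 rose by 1.76 in CP (SE 0.59, adjusted p = 0.024) but lost the call without ES-LIF(+) replicate 3, CP replicate 1 or CP replicate 3. In CM its difference of 0.93 did not pass the test (adjusted p = 0.19).

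Of the central paralogs, Hoxb4, a regulator of blood stem cell expansion, read 66, 113 and 68.5 on the ES-LIF(+) arrays, 119.7, 120.1 and 49 on ES-LIF(-), 197, 283 and 278 on CP and 385, 559.5 and 424 on CM. CP and CM did not overlap the embryonic stem cell stages, and every CM array exceeded every CP array. It rose by 1.46 in CP (SE 0.30, adjusted p = 0.000923) and by 2.28 in CM (SE 0.30, adjusted p = 8.84e-06). Hoxa5, required for lung and cervical skeleton development, read 367, 495 and 449 on the ES-LIF(+) arrays, 335, 462 and 504 on ES-LIF(-), 604, 694 and 686 on CP and 918, 878 and 791 on CM. Every CM array lay above every CP array and every CP array above both embryonic stem cell stages, with rises of 0.59 in CP (adjusted p = 0.00513) and 0.96 in CM (adjusted p = 5.59e-05). The CP rise lost its call with the arrays centred on their medians, where the difference was 0.30, and without ES-LIF(+) replicate 1, CP replicate 2 or CP replicate 3. Hoxb6, expressed in trunk and lateral plate mesoderm, read 73.4, 54 and 65.2 on the ES-LIF(+) arrays, 39.9, 45.1 and 10.7 on ES-LIF(-), 122, 123 and 106 on CP and 159, 170.3 and 205 on CM. The same order of arrays held, and the rise passed the test in CM (1.27, adjusted p = 0.00408) but not in CP (0.73, adjusted p = 0.0868). Hoxb6 exceeded the array median only on the 3 CM arrays, so the filter admitted it through the stage where it was highest. With every probe set tested limma gave an adjusted p of 0.00731 in CM.

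Hoxb7, a trunk gene, read 99.9, 38.3 and 43.9 on the ES-LIF(+) arrays, 123, 83.9 and 80.1 on ES-LIF(-), 145, 174 and 132 on CP and 31.3, 109.8 and 131 on CM. It rose in CP (1.20, SE 0.42, adjusted p = 0.0292) but not with centred arrays (0.91) or without ES-LIF(+) replicate 2 or 3 or CP replicate 1 or 2, and the 3 CM arrays spanned the range of both embryonic stem cell stages. Hoxc6, a gene of the thoracic region, read 82.7, 194 and 132 on the ES-LIF(+) arrays, 198, 176 and 141 on ES-LIF(-), 379, 358 and 324 on CP and 310.2, 310.0 and 447 on CM. CP and CM overlapped each other and lay above both embryonic stem cell stages, with rises of 1.34 (adjusted p = 0.000422) in CP and 1.33 (adjusted p = 0.000273) in CM. Hoxd8, expressed in the trunk and the limb buds, read 74.5, 93.4 and 117 on the ES-LIF(+) arrays, 105, 89.2 and 80.8 on ES-LIF(-), 301, 286 and 214 on CP and 250.5, 226 and 189 on CM. Its rises of 1.35 in CP (adjusted p = 0.000184) and 1.11 in CM (adjusted p = 0.00062) likewise left no overlap with ES-LIF(+).

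Among the genes with high paralog numbers, Hoxc10, a lumbar gene that acts in hindlimb motor neurons, read 14.7, 9.8 and 8.7 on the ES-LIF(+) arrays, 66.2, 24.5 and 34.7 on ES-LIF(-), 265, 246 and 276 on CP and 90.3, 80.8 and 129.5 on CM. The arrays were ordered CP, CM, ES-LIF(-) and ES-LIF(+) without overlap, and all ES-LIF(+) signals lay far under the array median, where a fold rests on the added 16. Hoxc10 rose by 3.37 in CP (SE 0.35, adjusted p = 1.73e-06) and by 2.09 in CM (SE 0.35, adjusted p = 9.06e-05). It exceeded the array median only on the 3 CP arrays, so the filter admitted it through the stage where it was highest. With every probe set tested limma gave an adjusted p of 2.35e-06 in CP and 0.000124 in CM. Hoxa10, which patterns the lumbar spine and the uterus, read 77.3, 68.1 and 55.1 on the ES-LIF(+) arrays, 98.9, 14.4 and 36.3 on ES-LIF(-), 469, 479.8 and 402 on CP and 134, 91.5 and 146 on CM. The 3 CP arrays lay above all 9 other arrays, and Hoxa10 rose by 2.50 in CP (SE 0.38, adjusted p = 7.54e-05), while the CM difference of 0.74 did not pass the test (adjusted p = 0.106). Hoxa10 exceeded the array median on 4 arrays, all of CP or CM, and with every probe set tested limma gave an adjusted p of 0.000157 in CP. The rise in CP lost its call with the mean or the lowest of the 2 Hoxa10 probe sets. Hoxa11, required for the forearm bones, the kidney and the uterus, read 128, 132 and 116 on the ES-LIF(+) arrays, 150.5, 98.4 and 144 on ES-LIF(-), 558, 636 and 577 on CP and 233, 202 and 305 on CM. It rose by 2.10 in CP (SE 0.20, adjusted p = 7.23e-07) and by 0.88 in CM (SE 0.20, adjusted p = 0.0013), and with centred arrays the CM difference was 0.56 and lost the call.

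Hoxa9, a regulator of blood progenitors and a leukemia gene, read 237, 177 and 70.6 on the ES-LIF(+) arrays, 258, 203 and 274 on ES-LIF(-), 465, 468 and 423 on CP and 470.1, 391 and 312 on CM. It rose by 1.53 in CP (adjusted p = 0.00061) and 1.31 in CM (adjusted p = 0.00134), and CP and CM overlapped each other but not the embryonic stem cell stages. Hoxb9, which shapes the ribs, read 46.5, 14.3 and 63.9 on the ES-LIF(+) arrays, 28.6, 73.2 and 53.2 on ES-LIF(-), 161, 160.3 and 220.5 on CP and 114, 113 and 149 on CM. Every CP array exceeded every CM array and every CM array both embryonic stem cell stages, with rises of 1.87 (adjusted p = 0.00095) in CP and 1.40 (adjusted p = 0.00538) in CM. Hoxb9 exceeded the array median on 4 arrays, all of CP or CM, so the filter admitted it in the same way as Hoxc10. With every probe set tested limma gave it an adjusted p of 0.00175 in CP and 0.00948 in CM. Hoxd9, a gene of the limb and the lumbar region, read 13.7, 85.7 and 22.7 on the ES-LIF(+) arrays, 94.1, 39.4 and 24.1 on ES-LIF(-), 261, 160.2 and 245 on CP and 196, 179 and 352 on CM. It rose by 2.26 in CP (SE 0.47, adjusted p = 0.00104) and 2.34 in CM (SE 0.47, adjusted p = 0.000482), and CM overlapped CP. Hoxd9 exceeded the array median on 6 arrays, all of CP or CM, so the filter admitted it through the stages where it was high. With every probe set tested limma gave it an adjusted p of 0.00197 in CP and 0.000924 in CM. Hoxd13, which patterns the digits and is mutated in human synpolydactyly, read 124, 66 and 42.5 on the ES-LIF(+) arrays, 189, 84.8 and 112 on ES-LIF(-), 144, 168 and 138 on CP and 136, 68 and 109.8 on CM. Its rise of 0.92 in CP was close to the limit (adjusted p = 0.0476) and lost the call with centred arrays (0.64) and without any one of 8 arrays, among them all 3 CP arrays, and ES-LIF(-) replicate 1 lay above every CP array. The remaining tested gene, Hoxc9, a thoracic gene, read 74.5, 105 and 23.2 on the ES-LIF(+) arrays, 72.9, 167 and 24 on ES-LIF(-), 50.6, 156 and 194 on CP and 70.6, 112 and 172 on CM, overlapped in every comparison and passed no test.

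**Figure D3:**
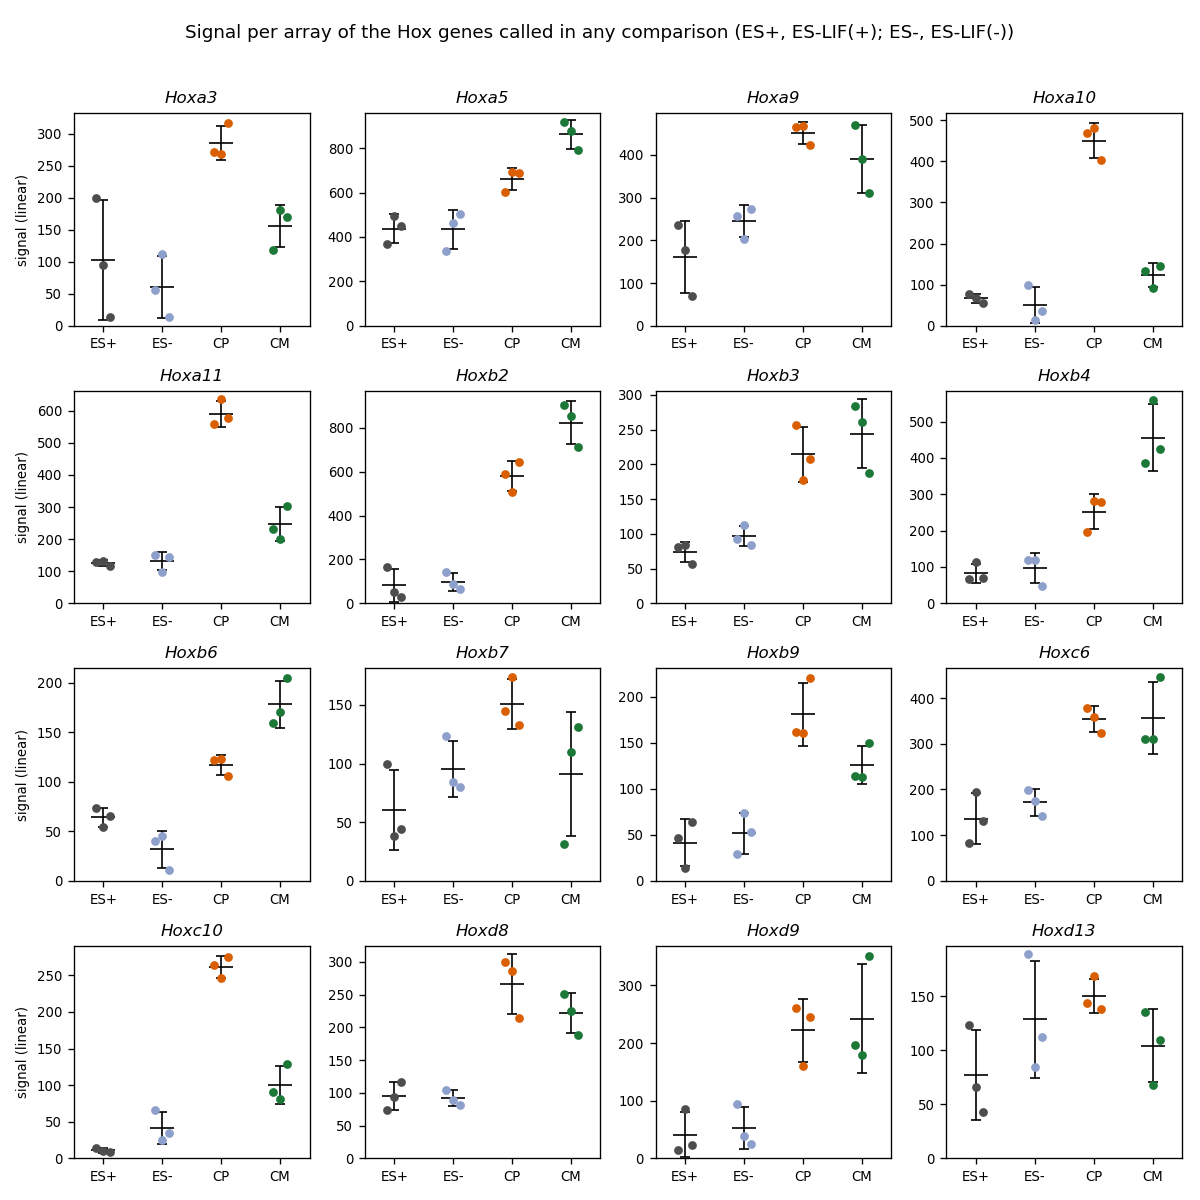
Linear signal per array (points) of the 16 Hox genes called in any comparison, by stage, with the mean and standard deviation over 3 arrays. Hoxa10, Hoxa11 and Hoxc10 stand highest on the 3 CP arrays and Hoxb2, Hoxb4 and Hoxb6 on the 3 CM arrays.

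Comparison of CM with CP asked which Hox genes differed between the cardiomyocyte and cardiopoietic stages. In CM 3 of the 33 Hox genes fell, Hoxa10, Hoxa11 and Hoxc10, where 10.4% of all tested genes fell. Of the 33 genes 1 rose, Hoxb4, where 9.04% rose. With 17 of the 33 genes tested, both counts lay near these shares. Hoxa10 averaged 124 ± 28.5 in CM and 450.3 ± 42.1 in CP, a difference of -1.76 (SE 0.38, adjusted p = 0.00238, and 0.00468 with every probe set tested). Hoxa11 averaged 246 ± 52.9 in CM and 590.2 ± 40.5 in CP, a difference of -1.22 (SE 0.20, adjusted p = 0.000231). Hoxc10 averaged 100.2 ± 25.8 in CM and 262 ± 15.1 in CP, a difference of -1.28 (SE 0.35, adjusted p = 0.0103, and 0.0147 with every probe set tested). The 3 genes kept their fall when any one array was left out, and in each of them all CM arrays lay below all CP arrays, but with the mean of its 2 probe sets Hoxa10 was not called. The rise of Hoxb4, 456 ± 91.6 in CM and 253 ± 47.9 in CP, was 0.81 (SE 0.30) and stood at the limit (adjusted p = 0.0496), and it lost the call without any one of 8 of the 12 arrays, with centred arrays (0.78), and with a pseudocount of 1 (0.85).

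The difference between CM and CP was also read by paralog number. The stage mean was highest in CP for 3 of 7 genes with numbers 1 to 3, for 6 of 12 with numbers 4 to 8 and for 12 of 14 with numbers 9 to 13. The median difference of CM against CP was 0.17, 0.14 and -0.47 in these groups, and -0.20 over all 33 genes, against -0.04 over all tested genes. In the group 9 to 13, 8 of 14 genes read lower on all CM arrays than on all CP arrays and none read higher, where 22% and 18.2% of all named genes did. Across the 33 genes the difference and the paralog number had a Pearson's r of -0.52 and a Spearman's rho of -0.54, a description of genes that share the same 6 arrays and include 16 dim ones. The same values over the 17 tested genes were -0.58 and -0.65. For CM against ES-LIF(+) the Pearson's r over 33 genes was -0.36, and for CP against ES-LIF(+) it was 0.12. The fibroblast and mesothelium markers also read lower in CM than in CP, by the sums given above, and their part in these differences was not tested.

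**Figure D4:**
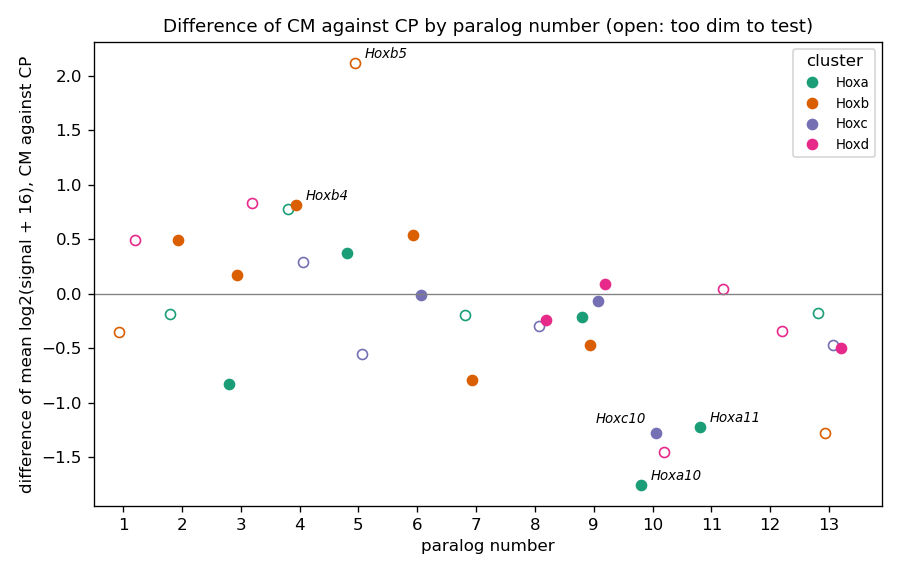
Difference of mean log2(signal + 16) of CM against CP for each Hox gene by paralog number, coloured by cluster, with open points for genes too dim to test and names on the 4 called genes and Hoxb5. The lowest point is Hoxa10 at -1.76, and the points above 0.5 all have numbers of 6 or less.

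The promoter windows of the genes called between CM and CP are shown because Hoxa10 and Hoxa11 lie next to each other in Hoxa and fell together while Hoxb4 rose. They run from 250 bases before to 50 bases after each RefSeq start site (GRCm38.p6), 5′ to 3′ on the strand of the gene, with CG dinucleotides in capitals, and Hoxa10 has windows at 2 start sites. The first Hoxa10 window is chr6:52240805-52241104 (minus strand), the second chr6:52234890-52235189 (minus strand), that of Hoxa11 chr6:52245761-52246060 (minus strand) and that of Hoxb4 chr11:96318017-96318316 (plus strand).
Hoxa10, first window: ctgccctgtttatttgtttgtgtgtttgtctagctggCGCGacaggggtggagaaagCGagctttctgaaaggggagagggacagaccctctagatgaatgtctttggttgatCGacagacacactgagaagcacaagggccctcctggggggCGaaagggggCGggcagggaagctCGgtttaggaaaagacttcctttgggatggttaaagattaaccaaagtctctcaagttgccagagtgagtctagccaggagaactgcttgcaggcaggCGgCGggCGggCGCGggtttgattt
Hoxa10, second window: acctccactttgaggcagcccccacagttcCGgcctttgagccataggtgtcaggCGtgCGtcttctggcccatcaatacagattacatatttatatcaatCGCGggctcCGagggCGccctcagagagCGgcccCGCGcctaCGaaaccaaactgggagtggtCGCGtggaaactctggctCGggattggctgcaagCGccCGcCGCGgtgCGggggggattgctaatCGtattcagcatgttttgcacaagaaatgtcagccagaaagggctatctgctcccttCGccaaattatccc
Hoxa11: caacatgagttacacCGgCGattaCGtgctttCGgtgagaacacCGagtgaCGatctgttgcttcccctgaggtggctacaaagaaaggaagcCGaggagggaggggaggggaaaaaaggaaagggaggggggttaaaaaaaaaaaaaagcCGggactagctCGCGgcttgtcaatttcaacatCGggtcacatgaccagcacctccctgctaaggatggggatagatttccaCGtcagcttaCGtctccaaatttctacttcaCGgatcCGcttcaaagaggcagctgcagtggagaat
Hoxb4: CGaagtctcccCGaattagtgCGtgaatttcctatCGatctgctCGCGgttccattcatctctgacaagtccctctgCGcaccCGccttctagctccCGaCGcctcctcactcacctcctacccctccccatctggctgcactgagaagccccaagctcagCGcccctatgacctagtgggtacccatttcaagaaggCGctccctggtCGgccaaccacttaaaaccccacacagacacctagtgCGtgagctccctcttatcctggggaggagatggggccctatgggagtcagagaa
These windows hold 12, 21, 15 and 14 CG dinucleotides in the order printed, and the count of Hoxb4 lay within the range of the Hoxa windows. The Hoxa10 and Hoxa11 windows have GC contents of 54.3%, 57.3% and 51%, and that of Hoxb4 58%. RefSeq gave 21 windows for 19 of the 33 Hox genes, with none for Hoxc10. Their median GC content was 58% and their median observed over expected CG ratio 0.596, against 52.7% and 0.384 over all 32851 windows. On either strand, the Cdx-type element TTTATG stood in 3 of 21 Hox windows (14.3%) and in 11.9% of all windows, and TGATNNAT, a form of the joint Hox and Pbx element, in 3 (14.3%) and 8.85%. The TATA box TATAAA stood in 2 (9.52%) and 13.6%, and the CCAAT box CCAAT in 12 (57.1%) and 37.4%. These are letter matches, not measured binding.

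Removal of LIF for 48 h gave few differences beyond the spread of the arrays. In ES-LIF(-) limma called 0 of 33 Hox genes against ES-LIF(+), where 4% of all tested genes rose and 3.68% fell, and 3 of the 17 tested genes had an unadjusted p under 0.05. The median difference was 0.04, against 0.03 over all tested genes. Hoxc10 had the widest difference above 0, 41.8 ± 21.7 in ES-LIF(-) and 11.1 ± 3.19 in ES-LIF(+), a log2 difference of 1.04 (SE 0.35, adjusted p = 0.0673). Its 3 ES-LIF(-) arrays all read above the 3 ES-LIF(+) arrays, and it passed the test with a pseudocount of 1, with a stricter filter on dim probe sets, without an intensity trend and without ES-LIF(-) replicate 2. Without overlap, 2 genes read higher (Hoxc10 and Hoxd1) and 3 lower (Hoxb6, Hoxc5 and Hoxd11), where 14.4% and 11.4% of all named genes did. The variance analysis described in the study's methods, with a fold limit between these stages, named Hoxa9, Hoxb6 and Hoxc10, but its p covers all 4 stages.

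The 16 genes too dim to test included several with a clear pattern over the stages. Hoxc8, which patterns the thoracic spine and brachial motor neurons, read 1.6, 3.5 and 5.5 on the ES-LIF(+) arrays, 1.6, 14.9 and 4.7 on ES-LIF(-), 97.5, 104 and 95.3 on CP and 98, 61.9 and 76.2 on CM. All CP and CM arrays lay above all embryonic stem cell arrays, and with every probe set tested Hoxc8 rose in CP (2.56, adjusted p = 1.89e-05) and in CM (2.26, adjusted p = 3.08e-05). Hoxb5, expressed in vagal neural crest and the enteric nervous system, read 13, 9 and 6.9 on the ES-LIF(+) arrays, 9, 14.4 and 8 on ES-LIF(-), 10.8, 43.5 and 10.5 on CP and 136, 141 and 126 on CM. It read at most 14.4 outside CM, apart from CP replicate 2, and with every probe set tested it rose in CM both against CP (2.11, adjusted p = 0.000456) and against ES-LIF(+) (2.56, adjusted p = 2.12e-05). Hoxd10, a lumbar gene like Hoxc10 and Hoxa10, read 7.6, 28.3 and 1.3 on the ES-LIF(+) arrays, 4, 7.9 and 25.1 on ES-LIF(-), 104, 52.7 and 109 on CP and 9, 19 and 41.1 on CM. Without the filter it rose in CP (1.94, adjusted p = 0.00353) and fell in CM against CP (-1.45, adjusted p = 0.0323), so all 3 genes of paralog number 10 fell under that setting. Hoxb13, a gene of the prostate and hindgut, read 13.2, 23 and 5.2 on ES-LIF(+) arrays, 46.9, 5.1 and 70.3 on CP and 4.6, 4.1 and 3.4 on CM, and CP replicate 2 read like the ES-LIF(+) and CM arrays.

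The same setting added rises of Hoxa2, the selector of the second pharyngeal arch, in CP (56.9, 89.2 and 83.9 on CP and 21.3, 23.6 and 29.6 on ES-LIF(+)) and of Hoxa4 and Hoxd1 in CM. Hoxa4, a cervical gene, read 48.2, 26.1 and 67.8 on CM and 8.7, 13.1 and 3.6 on ES-LIF(+), and Hoxd1, which acts in pain-sensing neurons of the mouse, 74, 76.8 and 76.7 on CM and 38.9, 36.2 and 31.9 on ES-LIF(+). With every probe set tested 16 Hox genes rose in CP and 16 in CM, where 13.8% and 19.8% of all named genes did, and 5 fell and 1 rose in CM against CP, where 7.44% and 6.69% did. Hoxb7 and Hoxd13 lost their calls in CP under this setting and Hoxb4 its call in CM against CP, so that the 1 that rose there was Hoxb5. Hoxa13, of the digits and the genital tubercle, averaged 60.8 ± 32.2 in ES-LIF(+), 117 ± 9.18 in CP and 101 ± 5.38 in CM. Hoxb1, a hindbrain gene, averaged 70 ± 13.6 in ES-LIF(+), 130.1 ± 27 in CP and 99.6 ± 28.5 in CM. Neither passed the test without the filter. Hoxc5 averaged 83.8 ± 22.6 in CP and 36.8 ± 10.5 in ES-LIF(+), Hoxd3 101 ± 22.3 in CM and 51.8 ± 30.2 in ES-LIF(+), and Hoxd11, a limb and kidney gene, was scattered in CP (58.8, 116 and 16.1) and CM (11.2, 63.2 and 143). The stage means of Hoxa7, Hoxc4, Hoxc13 and Hoxd12 lay between 8.43 and 32.5.

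Several genes had more than 1 probe set, 48 for the 33 genes, and these did not always read alike. For Hoxa9 the second probe set read 7.5, 6.1 and 9.7 on the ES-LIF(+) arrays, 10.9, 11.4 and 9.5 on ES-LIF(-), 290.2, 178 and 198 on CP and 39.6, 72 and 48.6 on CM. It rose in CP (3.30, adjusted p = 9.48e-06) and CM (1.52, adjusted p = 0.00427) as the brighter one did, but it fell in CM against CP (-1.78, adjusted p = 0.00332), where the brighter one differed by -0.22 (adjusted p = 0.63). This second probe set exceeded the array median only on the 3 CP arrays, so the filter admitted it through the stage where it was highest. With every probe set tested limma gave it adjusted p values of 1.88e-06 in CP, 0.00138 in CM and 0.00105 in CM against CP. For Hoxb4 the second probe set read 12.4, 15.2 and 13.6 on the ES-LIF(+) arrays, 87.6, 35.6 and 89.8 on ES-LIF(-), 166, 152 and 108 on CP and 228, 192 and 291 on CM. It rose by 2.39 in CP (adjusted p = 3.53e-05) and 3.07 in CM (adjusted p = 1.32e-06), and also in ES-LIF(-) (1.48, adjusted p = 0.00936), where the brighter one differed by 0.14, and its CM difference against CP of 0.68 did not pass (adjusted p = 0.145). The second probe sets of Hoxb3 and Hoxc6 rose in CP (2.40 and 0.93) and in CM (2.77 and 0.95). The third Hoxc6 probe set and the second ones of Hoxd8 and Hoxd13 were too dim to test. Their differences in CP were 0.66, 1.39 and 0.35. With every probe set tested limma gave them adjusted p values of 0.321, 0.078 and 0.326. Hoxa5 stood on a probe set whose _x suffix marks probes shared with other transcripts, and its other one differed by 0.90 in CP (adjusted p = 0.117) and 1.03 in CM (adjusted p = 0.0606). The second Hoxa10 probe set was too dim to test, with means of 43.6 ± 35.8 in CM and 43.5 ± 31.5 in CP, a difference of 0.01. Its mean in ES-LIF(+) was 35.2 ± 23.2, a difference of 0.16 in CP.

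Other transcripts of the clusters were read beside the 33 genes. Hoxa11os, an antisense transcript of the Hoxa11 locus, read 6.4, 80.9 and 21.7 on the ES-LIF(+) arrays, 13.7, 39.2 and 2.9 on ES-LIF(-), 209, 100.3 and 233 on CP and 96.7, 87.9 and 123 on CM with its brighter probe set, which was too dim for the test. The CP and CM arrays lay above the embryonic stem cell arrays, and without the filter the transcript rose in CP (2.11, adjusted p = 0.00718) and in CM (1.44, adjusted p = 0.0444). Its other probe set read at most 13.6 on any array and differed by 0.14 in CP. Hoxd3os1 was tested with its brighter probe set and did not pass in CP (0.29, adjusted p = 0.464) or CM (-0.33, adjusted p = 0.372). Hoxb5os and the probe sets shared by Hoxb8 and Hoxb7 or by Hoxd4 and Hoxd3 were too dim. They passed no test without the filter. Evx1, the even-skipped homeobox gene beyond the Hoxa13 end of Hoxa, read 48, 24 and 54.9 on the ES-LIF(+) arrays, 72, 54.1 and 126 on ES-LIF(-), 43.7, 63.7 and 23.3 on CP and 269, 264 and 65.4 on CM. It rose in CM against ES-LIF(+) (1.72, adjusted p = 0.00706) and against CP (1.71, adjusted p = 0.0151), with CM replicate 3 far below the other two. Evx2, at the same end of Hoxd, averaged 150.5 ± 20.9 in ES-LIF(+), 230.2 ± 54.8 in CP and 192 ± 74.1 in CM and passed no test.

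Most of the tested TALE cofactors rose in CP and CM as well. Of 9 listed genes 8 were named alone by a probe set and 7 were tested, of which 6 rose and 1 fell in CP and 6 rose and 1 fell in CM, against ES-LIF(+). Of all tested genes 18.7% rose and 13.3% fell in CP, and 25.7% rose and 23.9% fell in CM. Meis1, a partner of Hox proteins of high paralog number, read 43, 52.5 and 98.7 on the ES-LIF(+) arrays, 34.6, 16.6 and 5.5 on ES-LIF(-), 476, 496 and 535 on CP and 725, 926 and 708 on CM. It rose by 2.74 in CP (adjusted p = 3.90e-06) and 3.36 in CM (adjusted p = 1.74e-07) and fell by 1.24 in ES-LIF(-) (adjusted p = 0.0155), so that ES-LIF(-) read lowest. Meis2, which has the same role, read 197, 155 and 165 on the ES-LIF(+) arrays, 169, 159 and 115 on ES-LIF(-), 812, 897 and 822 on CP and 932, 810.5 and 874 on CM, with rises of 2.19 in CP (adjusted p = 2.95e-08) and 2.24 in CM (adjusted p = 7.63e-09). Pbx3, a cofactor that binds DNA beside Hox proteins, rose in CP (1.06), in CM (1.20) and in ES-LIF(-) (0.81, adjusted p = 0.00017), and Pknox2 rose in CP (1.02, adjusted p = 0.0212). Pknox1, which competes with Meis proteins for Pbx, was the one to fall, by 0.60 in CP (adjusted p = 0.00263), by 1.19 in CM (adjusted p = 3.00e-06) and by 0.59 in CM against CP (adjusted p = 0.00464). With centred arrays 5 genes of this list were called in any comparison, in place of 7.

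Of 10 genes that act upstream of Hox clusters 9 were named alone and 6 tested, of which 1 rose and 1 fell in CP and 2 rose and 1 fell in CM. These counts lay near the shares of all tested genes, 18.7% and 13.3% in CP and 25.7% and 23.9% in CM. Rarb, a retinoic acid receptor and itself a target of retinoic acid, read 60.2, 43 and 70.9 on the ES-LIF(+) arrays, 39.9, 47.7 and 38.2 on ES-LIF(-), 207, 172 and 165 on CP and 310.0, 233 and 246 on CM. It rose by 1.43 in CP (adjusted p = 0.000292) and 1.92 in CM (adjusted p = 9.36e-06). Cdx2, a caudal factor of the trunk and of trophoblast, read 147, 49.1 and 121 on the ES-LIF(+) arrays, 142, 83.1 and 129 on ES-LIF(-), 30.3, 60.2 and 19.3 on CP and 232, 152 and 255 on CM. Its mean was highest in CM and lowest in CP, with a fall of 1.18 in CP (adjusted p = 0.0222) and rises in CM against ES-LIF(+) (0.99, adjusted p = 0.0401) and against CP (2.17, adjusted p = 0.000581). Rarg fell by 1.21 in CM against ES-LIF(+) (adjusted p = 1.22e-05) and by 0.98 against CP (adjusted p = 0.000321), and Rara fell by 0.62 in ES-LIF(-) (adjusted p = 0.0145). Kmt2a and Men1, parts of a complex that keeps Hox genes active, were called in no comparison.

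Of 10 homeobox genes of the head, the gonads and the gut that lie outside the clusters, 4 were tested. Emx2, of the forebrain and the urogenital tract, rose by 1.76 in CP (adjusted p = 5.35e-05) and 2.36 in CM (adjusted p = 1.35e-06). Otx2, a gene of the epiblast and the anterior head, averaged 909 ± 23.2 in ES-LIF(+), 3449 ± 443 in ES-LIF(-), 920.4 ± 51.7 in CP and 538 ± 70.7 in CM. It rose in ES-LIF(-) (1.90, adjusted p = 7.81e-08) and fell by 0.75 in CM against ES-LIF(+) (adjusted p = 3.42e-05) and by 0.76 against CP (adjusted p = 9.97e-05), while in CP it differed from ES-LIF(+) by 0.02 (adjusted p = 0.915).

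The genes that flank the clusters were taken as the 4 nearest on each side. Of 32 flanking genes 31 were named alone and 29 tested, of which 0 rose and 2 fell in CP, where 18.7% and 13.3% of all tested genes did. The 2 were Agps (-0.66, adjusted p = 0.0121) and Snx10 (-0.60, adjusted p = 4.02e-05). The median difference of the flanking genes was -0.10 in CP, against 0.92 for the 33 Hox genes, and -0.08 in CM, against 0.88. In CM 3 rose and 9 fell, where 25.7% and 23.9% of all tested genes did, with the widest changes in Calcoco2, an autophagy receptor in human cells (-1.85), Evx1 (1.72), the heterochromatin protein gene Cbx1 (-1.31) and the sorting nexin gene Snx10 (-1.30). In ES-LIF(-) 2 fell, Calcoco2 (-2.42, adjusted p = 1.30e-07) and Skap2 (-0.71, adjusted p = 0.000918). In CM against CP 2 rose, Evx1 and Atf7 (0.69, adjusted p = 0.0127), and 3 fell, Calcoco2 (-2.14), Cbx1 (-0.74) and Snx10 (-0.70).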

How the data were processed

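RNA from 12 samples, 3 for each of ES-LIF(+), ES-LIF(-), CP and CM, was hybridized to Mouse 430 2.0 arrays. The deposited values are intensity signals that the authors made with MAS5 and scaled, so that every array had a trimmed mean of 500 with 2% cut from each end. Control probe sets (64 of 45101) were set aside. Signals were used as log2(signal + 16), without further scaling. A probe set was tested where it exceeded the median of its own array on at least 3 arrays, which 26083 did. The platform annotation gave 1 gene for 34945 probe sets, several for 932 and none for 9160, and probe sets with several were not used for genes. One linear model with a mean per stage was fitted to all arrays in limma 3.58.1 (R 4.3.3), with empirical Bayes moderation, an intensity trend and Benjamini-Hochberg adjustment over all probe sets tested. The 4 comparisons were CP, CM and ES-LIF(-) against ES-LIF(+), and CM against CP. Adjusted p values in the text are those of limma. Array values were given for every Hox gene called in any comparison, and of each other list called genes were named with the largest change first, up to 4 in a comparison. Array values of all other genes and of second probe sets, and Atf7, were chosen after their values were seen. The members and all gene lists were chosen with earlier results of these data known. The procedure was tested on simulated data. Alternatives covered scaling, pseudocount, filter, test, fold limit, arrays in the fit, probe set per gene, the replicate number as a block, and the omission of single arrays. Detection calls were not used here. The number of arrays, 3 per stage, limits the precision.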

Additional observations from a re-analysis of the deposited data

How the results depend on the processing

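No called difference of a Hox gene changed its sign under any alternative where the probe set read was tested. Lowest probe sets too dim to test had the other sign for Hoxa3 in CP (-0.40) and for Hoxa10 in CM against CP (0.01). Of 732 values of single genes under the settings that kept all arrays, 697 kept their side of the threshold, 24 lost a call and 11 gained one. Of 768 values with an array left out, 713 were unchanged in this sense, 26 lost a call and 8 gained one. The other 21 changed sign but were called in neither fit. Leaving out one array gave 12 to 15 genes called in CP against ES-LIF(+), 12 to 13 in CM against ES-LIF(+), 0 to 2 in ES-LIF(-) against ES-LIF(+), 3 to 4 in CM against CP, and 14 to 16 in the F test. The 2 in ES-LIF(-) were Hoxa9 and Hoxb2, without ES-LIF(+) replicate 1, and without ES-LIF(-) replicate 2 there was 1, Hoxc10. With the lowest probe set of each gene 9 genes were called in CP against ES-LIF(+) in place of 15. Hoxa3, Hoxa5, Hoxa10, Hoxc6, Hoxd8 and Hoxd13 lost their calls there. In ES-LIF(-), with 0 calls, 1 gene was called with a pseudocount of 1, with the filter on all 3 arrays of a stage and without the intensity trend (Hoxc10 each time), 1 with the lowest probe set (Hoxb4), 3 with the mean over probe sets (Hoxa5, Hoxb4 and Hoxc10) and 3 with the one-way analysis of variance and the fold limit. The causes were not tested. Median centring left 12 genes in CP, 11 in CM and 3 in CM against CP, and quantile normalization left 11, 11 and 3. Hoxa10 lost its calls in CP against ES-LIF(+) and in CM against CP with the mean or the lowest of its 2 probe sets. Under both settings Hoxa9 fell in CM against CP. Both use its second probe set, which exceeded the array median only on the 3 CP arrays. Replicate numbers did not pair the arrays, as the deviations of same-numbered arrays correlated between -0.05 and 0.10, and the fit with the replicate block gave 15, 12, 0 and 4 genes called and 14 in the F test, the same counts as without it. Dim signals limit these data: 16 of 33 Hox genes were too dim to test.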
